A study of Mus musculus with 3 samples.

Results

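The mitochondrial respiratory chain is built from 2 genomes, and its genes were followed here in nuclei of mouse brown adipose tissue (BAT). The first group held every gene listed in the tables whose symbol starts with Nduf, Sdha, Sdhb, Sdhc, Sdhd, Uqcr, Cox4, Cox5, Cox6, Cox7, Cox8 or Atp5, the families of complexes I to V, and counted 94 genes. The second group held the 13 genes with an mt- symbol, all mRNAs of the mitochondrial DNA. Together they were 107 of the 25154 genes listed in the tables. By role, the nuclear-encoded group held 35 complex I, 4 complex II, 8 complex III, 17 complex IV and 16 complex V genes, 12 assembly factors, and 2 genes placed in none of these, Atp5s and Cox7a2l. Ndufa4 and Ndufa4l2 were counted with complex IV. The mt- genes were 7 of complex I, 1 of complex III, 3 of complex IV and 2 of complex V. Each was followed as CPM, its UMIs in every 1000000 UMIs of a nucleus type, a UMI standing for 1 transcript molecule. Cox4i1 and Ndufa13, which belong to the same families, were not analysed here, and the sums of complexes IV and I are without them.

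The study sequenced single nuclei of BAT from adult WT mice of the C57Bl6 strain in 3 libraries, from untreated mice, from mice after a sham operation, and from mice after denervation of the tissue. Nuclei were sorted from the floating layer of digested BAT, which holds brown adipocytes (BAs) with fragments of their vessels, and processed with the BD Rhapsody whole transcriptome kit. Each condition was 1 library, the animals behind a library could not be separated in the tables, and the labels did not tie the sham pads to the denervated animals. With 1 library per condition no comparison had a replicate, no test was made, and every interval given covers counting error at 95% and nothing else. An operation therefore cannot be told apart from the library that carries it.

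The respiratory chain passes electrons from NADH (complex I) and succinate (complex II) through ubiquinone, complex III and cytochrome c to complex IV, and the proton gradient this builds is used by the ATP synthase, complex V. In BAs, UCP1 lets protons back in without ATP synthesis, so that respiration gives heat, and these cells are known for dense mitochondria and a low content of ATP synthase. Most subunits are transcribed in the nucleus and imported, while a small core is transcribed and translated inside the mitochondrion, so that mt- transcripts in a nucleus preparation come from outside the nucleus.

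The deposited tables held 14971579, 14725864 and 9420030 UMIs for the untreated, sham and denervated libraries, and 10094, 11377 and 9370 nuclei were kept at medians of 1009, 747 and 696 UMIs. Clusters were named from marker genes, without any of the 107 genes. BA-like nuclei numbered 4730, 3482 and 5304, endothelial cell (EC)-like nuclei 4670, 5216 and 2061, pericyte-like nuclei 468, 1051 and 662, and white adipocyte-like nuclei 110, 1042 and 992. All 12 BA markers had UMIs in BA-like nuclei, where they summed to 13113, 13507 and 13635 CPM. The same markers summed to 1713, 1424 and 1973 in EC-like nuclei. Barcodes with under 200 detected genes carried mt- genes at 43.4%, 59.0% and 6.77% of UMIs in the 3 libraries, and endothelial markers at 6615, 5439 and 12642 CPM against 16629, 13200 and 13936 in EC-like nuclei. What these barcodes hold, free RNA or shallow nuclei, was not tested, and in the denervated library their endothelial markers were close to those of EC-like nuclei. Between 251 and 278 barcodes occurred in both libraries of a pair, and none had an identical profile.

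BA-like nuclei held more UMIs of nuclear-encoded respiratory chain genes than any other type compared here, in all 3 libraries. The group summed to 16041, 16086 and 19533 CPM in untreated, sham and denervated BA-like nuclei. In EC-like nuclei it summed to 9114, 6716 and 15214. Pericyte-like nuclei were at 7284, 6784 and 10494, and white adipocyte-like nuclei at 7547, 7267 and 12848. The mt- genes were ordered differently, highest in EC-like nuclei at 92673, 126983 and 55721 CPM against 31558, 64850 and 18580 in BA-like nuclei. Pericyte-like nuclei had 39326, 53806 and 21013 and white adipocyte-like nuclei 28762, 64110 and 18867. Thus the denervated library was at the top for nuclear-encoded genes and at the bottom for mt- genes in each of these 4 types, and the sham library was at the top for mt- genes. Barcodes with under 200 detected genes were likewise at the top in the denervated library, with 8456, 6276 and 12391 CPM of nuclear-encoded members. EC-like nuclei stood at 1.08, 1.07 and 1.23 times the level of these barcodes, whose part in the EC-like levels was not tested.

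**Figure D1:**
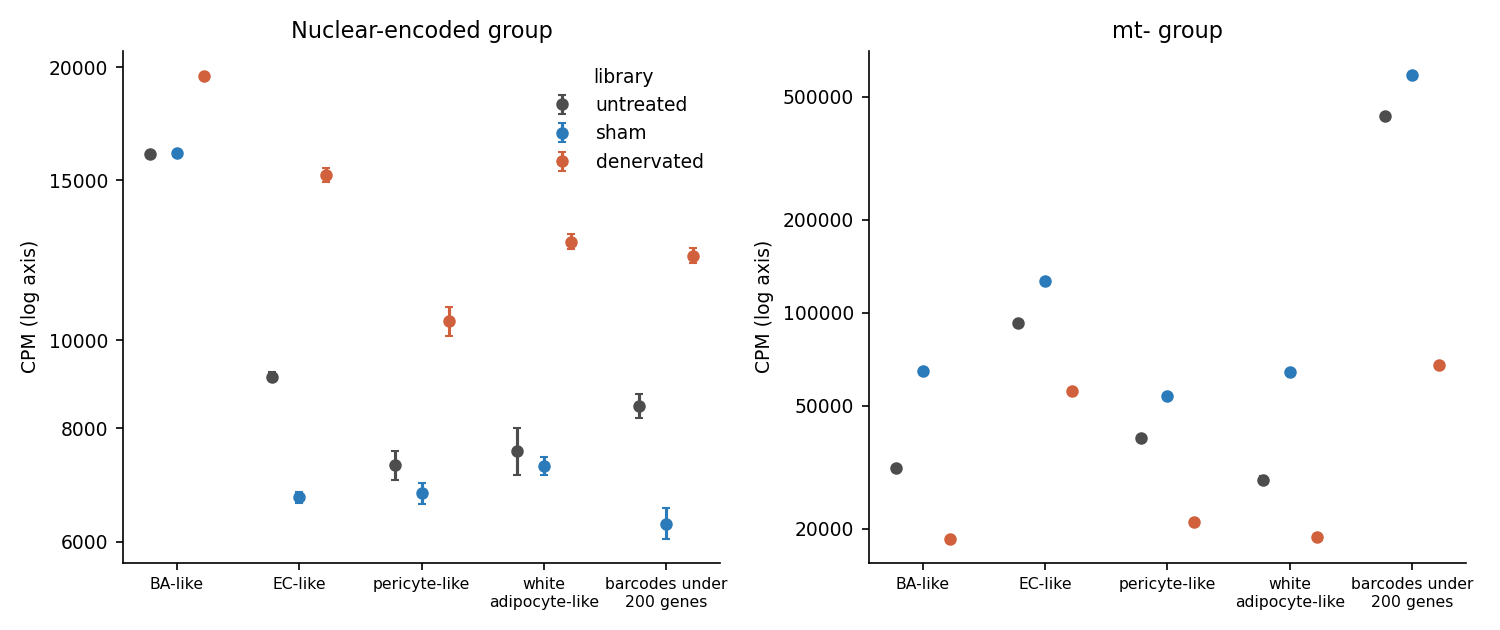
CPM (log axes) of the nuclear-encoded group (left) and the mt- group (right) by nucleus type and in barcodes with under 200 detected genes; points are the 3 libraries and bars are exact 95% Poisson intervals, often smaller than the point. BA-like nuclei lead on the left, at 16041 to 19533, while EC-like nuclei and the barcodes with few genes lead on the right.

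Between BA-like and EC-like nuclei the nuclear-encoded group was higher in BA-like nuclei by 0.82 on the log2 scale in the untreated library (interval 0.80 to 0.83), by 1.26 in sham (1.24 to 1.28) and by 0.36 in denervated (0.33 to 0.39). The median member was higher by 0.65, 1.14 and 0.26, where the median of all genes tested was 0.28, 0.15 and 0.20. A member entered these counts with at least 50 UMIs over both nucleus types. At least 2-fold higher in BA-like nuclei were 33 of 90 members in the untreated library, where 27.5% of all genes met the same rule. In sham nuclei it was 59 of 91 members beside 25.9% of all genes. In denervated nuclei it was 19 of 87 members beside 25.4% of all genes, a share below that of all genes. The members called were thus well above the background in the sham library, somewhat above it in the untreated library and not above it in the denervated one.

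Complex II, succinate dehydrogenase, which also belongs to the citric acid cycle, differed most among the 5 complexes in each library. Its 4 genes summed to 1384, 1136 and 1272 CPM in untreated, sham and denervated BA-like nuclei against 464, 318 and 619 in EC-like nuclei. The log2 ratios were 1.58 (1.498 to 1.65), 1.84 (1.74 to 1.94) and 1.04 (0.91 to 1.17). Each of the 4 subunits took part. Sdha, the flavoprotein that oxidizes succinate (chr13:74322254-74350280, GRCm38), stood at 526, 409 and 463 CPM in BA-like and 173, 131 and 182 in EC-like nuclei. Sdhb, the iron-sulfur subunit, stood at 368, 358 and 323 against 102, 71.1 and 167. The membrane anchor Sdhc stood at 174, 152 and 156 against 47.1, 46.4 and 59.9. For all 3 of these subunits the lowest BA-like value lay above the highest EC-like value. The other anchor, Sdhd, was at 316, 217 and 330 against 142, 69.5 and 210, and its denervated EC-like value nearly reached the sham BA-like value.

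Complex IV, cytochrome c oxidase, differed least in the untreated and denervated libraries, at 0.45 (0.42 to 0.49) and 0.11 (0.061 to 0.15). In the sham library it reached 1.22 (1.17 to 1.26), so that its place among the complexes changed with the library. Complex I stood at 0.88, 1.28 and 0.40 in untreated, sham and denervated nuclei, complex III at 0.79, 1.16 and 0.35, and complex V at 0.87, 1.24 and 0.45. These 3 complexes had similar ratios within each library. In numbers of members, 12 of 35 complex I genes tested in the untreated library were at least 2-fold higher in BA-like nuclei, as were 3 of 8 for complex III, 1 of 13 for complex IV, 6 of 16 for complex V and 6 of 12 assembly factors. Beside the 27.5% of all genes, the counts of complexes I, III and V were not far above the background, that of complex IV was below it, and all 4 complex II genes met the rule. In the sham library the counts were 26 of 35 for complex I, 4 of 4 for complex II, 5 of 8 for complex III, 9 of 14 for complex IV and 11 of 16 for complex V, each well above the 25.9% of all genes, and 3 of 12 for assembly factors, just below it. In the denervated library they were 5 of 34, 2 of 4, 2 of 8, 0 of 12 and 3 of 15 for complexes I to V beside 25.4% of all genes, and 6 of 12 for assembly factors, so that complex II and the assembly factors stood above it.

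**Figure D2:**
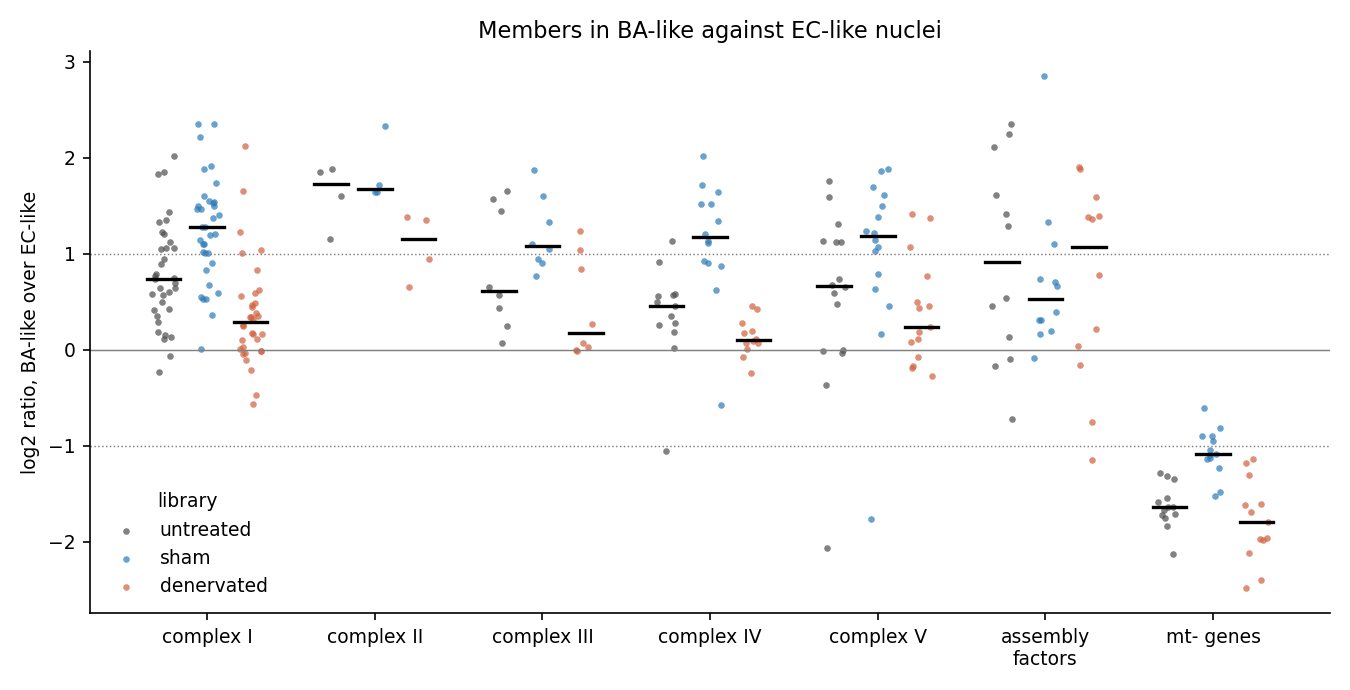
Log2 ratio of CPM in BA-like over EC-like nuclei for each member with at least 50 UMIs, by complex and library; horizontal bars are medians and dotted lines mark 2-fold. Complex II stands above the other complexes in each library, and the 13 mt- genes lie below 0 in all 3.

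The members with the 5 highest ratios in the untreated library were Ndufaf4, Sdhaf3, Sdhaf4, Ndufs1 and Sdhc. Ndufaf4, an assembly factor of complex I (chr4:24898083-24905001, GRCm38), stood at 211, 173 and 121 CPM in untreated, sham and denervated BA-like nuclei and at 41.4, 24.0 and 32.8 in EC-like nuclei. Its log2 ratios were 2.35, 2.85 and 1.88. The lowest BA-like value was thus well above the highest EC-like value. Ndufs1, the largest iron-sulfur subunit of the complex I arm that takes electrons from NADH (chr1:63143596-63176833, GRCm38), stood at 353, 273 and 316 against 86.9, 73.7 and 72.3. Its ratio was close to 2 on the log2 scale in each library, at 2.02, 1.89 and 2.13. Sdhaf3 and Sdhaf4, assembly factors of complex II, were far scarcer, at 37.7, 23.3 and 44.3 and at 34.2, 27.4 and 25.2 in BA-like nuclei. Their log2 ratios in the untreated library were 2.25 (1.67 to 2.90) and 2.11 (1.52 to 2.77), and in the denervated library the interval for Sdhaf4 included 0, at 0.78 (-0.042 to 1.73).

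Further catalytic and core subunits, chosen after their values were seen, did not differ equally between the types. Atp5a1, the alpha subunit of the ATP synthase, was at 1172, 808 and 1235 CPM in BA-like nuclei against 346, 222 and 477 in EC-like nuclei. The core proteins of complex III behaved alike. Uqcrc1 was at 215, 199 and 245 against 79.0, 54.5 and 119, and Uqcrc2 at 314, 282 and 280 against 106, 93.2 and 119. Uqcrfs1, the Rieske iron-sulfur protein, was at 234, 115 and 206 against 74.2, 45.5 and 115. Its sham BA-like value was as low as its denervated EC-like value, so that for this gene the types overlapped across libraries. Other core subunits were closer between the types, though Atp5b only in the untreated and denervated libraries. The catalytic beta subunit of the ATP synthase, Atp5b, stood at 290, 272 and 249.3 against 132, 96.7 and 176, and Ndufs8, a core iron-sulfur subunit of complex I, at 29.5, 34.7 and 26.9 against 22.1, 23.1 and 27.1. In the denervated library the Ndufs8 values of the types were thus nearly equal, with a log2 ratio of -0.012 (-0.64 to 0.68). Among accessory subunits of complex I, Ndufs4 stood at 349, 227 and 370 against 98.3, 93.9 and 117.

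At the other end, Atp5g1 was the only nuclear-encoded member at least 2-fold higher in EC-like than BA-like nuclei in all 3 libraries. It is 1 of the 3 genes that encode the c subunit, the ring of the ATP synthase that turns in the membrane, and it stood at 4.15, 4.63 and 4.08 CPM in BA-like nuclei against 17.4, 15.7 and 23.7 in EC-like nuclei. Its log2 ratios were -2.07 (-2.72 to -1.44), -1.76 (-2.53 to -1.03) and -2.54 (-3.47 to -1.61). The sister gene Atp5g3 went the other way, at 347, 396 and 417 in BA-like against 159, 129 and 244 in EC-like nuclei. Of all UMIs of the 3 genes, Atp5g1 made up 0.796%, 0.836% and 0.644% in BA-like nuclei and 5.82%, 6.10% and 4.52% in EC-like nuclei. In the denervated library Atp5g1 had 43 UMIs over both types, under the minimum of 50 for the counts. The remaining members at the low end of the untreated comparison were Ndufa4l2 at -1.05, the complex I assembly factor Ndufaf2 at -0.72, the ATP synthase subunit Atp5j at -0.37 and Ndufa2 at -0.23.

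The EC-like level depended on which EC-like cluster was read. In each library 1 cluster was led by Aqp1, a water channel gene of capillary endothelium, and held 9993, 9195 and 18568 CPM of nuclear-encoded members and 100919, 190939 and 71271 of mt- genes. The largest cluster not led by Aqp1 held 4938, 5165 and 8195 of the first and 41295, 89522 and 23174 of the second. Both groups were thus higher in the Aqp1-led cluster in every library. Against the Aqp1-led cluster alone, the nuclear-encoded group was higher in BA-like nuclei by 0.68, 0.81 and 0.073 on the log2 scale. Against the other cluster it was higher by 1.70, 1.64 and 1.25, and 78 members in place of 33 were at least 2-fold higher in the untreated library, where 30.6% of all genes met the rule against this cluster. Median depth differed alongside, at 781, 510 and 454 UMIs in the Aqp1-led clusters and 342, 487 and 284 in the others. These alternatives were chosen after the data were seen, and the part of depth in the result was not tested.

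Depth also moved with the level inside a type. In untreated EC-like nuclei the nuclear-encoded group rose from 6562 CPM in nuclei under 500 UMIs to 10348 in nuclei of 1000 to 2000 UMIs. In untreated BA-like nuclei of the same depths it stood at 14299 and 15227. BA-like nuclei were thus higher at either depth. In the denervated library the corresponding values were 13689 and 17885 in EC-like and 16402 and 20927 in BA-like nuclei. Sham nuclei had 6225 and 7264 in EC-like and 16004 and 16226 in BA-like nuclei. Between these bins, in nuclei of 500 to 1000 UMIs, BA-like against EC-like nuclei stood at 13635 against 9347 in untreated, 17675 against 6744 in sham and 17411 against 17724 in denervated nuclei. The BA-like excess was thus present in each of the 3 depth bins in the untreated and sham libraries. In the denervated library it was present under 500 UMIs and from 1000 to 2000 UMIs, the latter with 41 EC-like nuclei, and absent in the bin between, where the intervals of the types overlapped. Among BA-like nuclei, the clusters led by heat-shock and immediate early genes stood lowest in each library, at 12445, 15080 and 16209, where the largest BA-like clusters stood at 16441, 16379 and 21823.

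Several subunits come as paralogs with a tissue or oxygen preference. In pericyte-like nuclei of the untreated library the 2 highest ratios to EC-like nuclei belonged to Cox4i2 and Ndufa4l2. Cox4i2, the paralog of the Cox4 subunit known from lung and from low oxygen (chr2:152754173-152765037, GRCm38), stood at 297, 299 and 265 CPM in pericyte-like nuclei. It stood at 5.69, 8.01 and 2.26 in EC-like nuclei and at 2.76, 2.89 and 4.63 in BA-like nuclei. Ndufa4l2, a hypoxia-inducible paralog of Ndufa4 (chr10:127514967-127517154, GRCm38), stood at 499, 493 and 163 in pericyte-like nuclei. In EC-like nuclei it was at 10.7, 8.33 and 9.03 and in BA-like nuclei at 5.18, 5.60 and 3.15. Both genes were thus nearly confined to pericyte-like nuclei among the 3 types, with log2 ratios over EC-like nuclei of 5.71, 5.22 and 6.87 for Cox4i2 and 5.54, 5.89 and 4.17 for Ndufa4l2. The 6.87 divides by 2.26 CPM in EC-like nuclei with 885483 UMIs in all, so it rests on very few UMIs and its size is uncertain. Smooth muscle nuclei, named in the sham library only, are not part of this comparison. In barcodes with under 200 detected genes Cox4i2 was at 12.1, 12.6 and 18.3 and Ndufa4l2 at 10.1, 12.6 and 8.03, so that the EC-like and BA-like values were at about the level of these barcodes or under it.

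Ndufa4l2 also differed between libraries. It made up 92.0% (87.5 to 95.3), 95.8% (93.3 to 97.5) and 61.6% (49.5 to 72.8) of the UMIs of the Ndufa4 pair in untreated, sham and denervated pericyte-like nuclei. In BA-like nuclei its share was 3.88%, 3.05% and 1.52%. The denervated pericyte-like value lay apart from the other libraries, and against untreated it was lower by a log2 ratio of -1.61 (-2.11 to -1.14). Cox4i2 in the same nuclei was at -0.17 (-0.61 to 0.27), an interval that included 0. The 73 and 45 UMIs of these genes in the denervated library came from nuclei with a median depth of 369 UMIs against 762 in the untreated library. The 8 pericyte markers moved in the same direction as Ndufa4l2, with sums of 13401, 14925 and 7961 CPM in untreated, sham and denervated pericyte-like nuclei, and smooth muscle markers summed to 2461, 1137 and 1815. A cluster of its own, of 353 nuclei, was named for smooth muscle in the sham library and in neither of the others. The make-up of the pericyte-like nuclei thus differed between libraries, and its part in the Ndufa4l2 difference was not tested.

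The nuclear-encoded sum of pericyte-like nuclei, these paralogs included, was lower than that of EC-like nuclei in the untreated and denervated libraries, by log2 ratios of -0.32 (-0.38 to -0.27) and -0.54 (-0.59 to -0.48), and about equal in sham, at 0.015 (-0.029 to 0.058). In the untreated library 4 of 84 members were at least 2-fold higher, beside 14.3% of all genes, and 12 were at least 2-fold lower, beside 16.6% of all genes. The 4 were Cox4i2, Ndufa4l2, Atp5g1 at 1.14 and Ndufs4 at 1.02. The lowest were Uqcr11 at -2.18, Atp5o at -1.40, Atp5j at -1.36, the acyl carrier protein Ndufab1 at -1.32 and Cox8b at -1.23. They rest on 8, 37, 11, 14 and 17 pericyte-like UMIs, and the Uqcr11 interval was -3.41 to -1.18. Atp5o, Atp5j and Cox8b were lower in each library. Uqcr11 was closer in sham and denervated nuclei (63.7 and 134 CPM against 83.0 and 160), and Ndufab1 was not lower in sham (71.3 against 69.8). Atp5g1, with 15 pericyte-like UMIs, was lower than in EC-like nuclei in the denervated library (14.5 against 23.7).

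The muscle and BAT isoforms of complex IV were less type-specific in these nuclei. Cox7a1, the heart and muscle form of subunit 7a, stood at 139, 225 and 211 CPM in untreated, sham and denervated BA-like nuclei against 117, 78.5 and 201 in EC-like nuclei. Its share of the Cox7a1 and Cox7a2 family was 59.5%, 65.4% and 59.4% in BA-like and 55.6%, 50.4% and 54.1% in EC-like nuclei. Cox8b, a gene often used as a marker of thermogenic fat, stood at 152, 275 and 236 against 102, 88.1 and 172. It made up 32.7%, 48.1% and 35.8% of Cox8 UMIs in BA-like and 28.2%, 36.0% and 29.1% in EC-like nuclei. Both isoforms were present at 98.1 to 173 CPM for Cox7a1 and 101 to 154 for Cox8b in barcodes with under 200 detected genes, near the EC-like values, and the part of these barcodes was not tested. Cox6b2, the testis form of subunit 6b, had a share of 8.33%, 19.1% and 5.74% in pericyte-like nuclei and 0.995%, 2.27% and 1.39% in BA-like nuclei, from 6 to 46 UMIs. Cox6a2, the heart and muscle form of subunit 6a, was listed in the denervated library only and passed the minimum in no comparison. Per exonic kilobase, the 5 highest nuclear-encoded members in untreated BA-like nuclei were all of complex IV, namely Cox6a1 at 681 CPM per kilobase, Cox6b1 at 534, Cox8a at 506, Cox7c at 428 and Cox8b at 422. Both the order and the restriction to complex IV depend on the division, which used all annotated exons of a gene, while a UMI stands for 1 molecule. In undivided CPM the highest were Atp5a1 at 1172, Cox6c at 535, Sdha at 526, Cox7c at 484 and Cox6a1 at 478.

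Promoters of 5 members that the ratios above turn on were read to show how differently members of 1 pathway start. They come from RefSeq on GRCm38.p6 and run from 250 bases before to 50 bases after the transcription start, 5′ to 3′ on the strand of the gene. Capitals mark letters that match a searched motif on either strand. Ndufaf4 (chr4:24897833-24898132, plus strand) and Sdhb (chr4:140961021-140961320, plus strand) are shown for their high BA-like ratios, Atp5g3 (chr2:73911277-73911576, minus strand) for its contrast with Atp5g1, and Cox7a1 (chr7:30183921-30184220, plus strand) and Cox8b (chr7:140900397-140900696, minus strand) as the tissue isoforms.
Ndufaf4: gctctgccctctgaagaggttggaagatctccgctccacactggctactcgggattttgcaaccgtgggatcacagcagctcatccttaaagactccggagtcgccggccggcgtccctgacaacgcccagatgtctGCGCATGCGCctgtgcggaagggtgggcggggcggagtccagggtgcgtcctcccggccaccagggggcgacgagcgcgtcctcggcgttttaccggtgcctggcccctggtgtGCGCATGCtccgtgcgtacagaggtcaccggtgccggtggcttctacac
Sdhb: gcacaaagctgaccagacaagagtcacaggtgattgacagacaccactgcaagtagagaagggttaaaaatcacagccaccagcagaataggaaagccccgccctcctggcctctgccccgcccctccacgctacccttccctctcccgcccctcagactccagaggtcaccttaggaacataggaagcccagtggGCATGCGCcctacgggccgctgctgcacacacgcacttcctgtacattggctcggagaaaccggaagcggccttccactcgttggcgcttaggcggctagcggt
Atp5g3: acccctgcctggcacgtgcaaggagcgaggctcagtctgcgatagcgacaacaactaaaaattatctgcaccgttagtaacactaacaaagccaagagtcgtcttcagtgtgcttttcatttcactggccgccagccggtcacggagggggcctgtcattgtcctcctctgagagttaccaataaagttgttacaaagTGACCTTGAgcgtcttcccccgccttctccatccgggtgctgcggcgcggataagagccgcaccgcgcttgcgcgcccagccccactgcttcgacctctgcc
Cox7a1: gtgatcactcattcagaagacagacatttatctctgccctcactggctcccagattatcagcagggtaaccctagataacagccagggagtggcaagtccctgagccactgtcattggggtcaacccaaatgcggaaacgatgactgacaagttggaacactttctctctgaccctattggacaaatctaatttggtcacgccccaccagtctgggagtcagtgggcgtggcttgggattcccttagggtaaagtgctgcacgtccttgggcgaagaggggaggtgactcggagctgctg
Cox8b: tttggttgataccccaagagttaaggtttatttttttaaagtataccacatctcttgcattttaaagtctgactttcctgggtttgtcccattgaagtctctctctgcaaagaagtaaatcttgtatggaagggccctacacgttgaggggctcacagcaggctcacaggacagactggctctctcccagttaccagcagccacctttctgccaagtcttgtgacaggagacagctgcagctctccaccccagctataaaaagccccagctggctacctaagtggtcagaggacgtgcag

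The Ndufaf4 promoter held 3 matches to GCATGCGC, a core sequence bound by NRF1, of which a pair overlap, and the Sdhb promoter held 1. The Atp5g3 promoter held 1 match to TCAAGGTCA, the extended half-site of the estrogen-related receptors, on the minus strand of the gene. The Cox7a1 and Cox8b windows held none of the 4 motifs searched. Over the 76 nuclear-encoded members with a promoter in the table, GCATGCGC was found in 12 (15.8%), against 2.80% of all 27025 promoters and 5.73% of the promoters of genes tested for BA-like over EC-like nuclei. The 12 were Atp5g2, Atp5k, Atp5l, Cox6a1, Ndufa11, Ndufa6, Ndufa8, Ndufaf4, Ndufaf5, Sdhb, Uqcr11 and Uqcrc1. AAGATGGC, the YY1 core, was found in 9 members (11.8%) against 2.88% and 4.99%. CCGGAAGT, a site of the ETS factor GABP, also called NRF2, was found in 5 (6.58%) against 4% and 8.83%. TCAAGGTCA was found in 2, Atp5g3 and Sdhd (2.63%), against 0.407% and 0.200%.

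Members with and without a motif were set side by side by their median log2 ratio of BA-like over EC-like nuclei. For GCATGCGC it was 0.71 in 12 members with it and 0.61 in 63 without it in the untreated library. In sham nuclei it was 1.05 in 12 and 1.14 in 64, and in denervated nuclei 0.20 in 12 and 0.22 in 61, so that the order of the medians changed between libraries. For AAGATGGC the medians were 0.59 with and 0.65 without it in untreated, 1.143 and 1.139 in sham and 0.26 and 0.22 in denervated nuclei, and their order changed as well. For CCGGAAGT the 5 members with it had the lower median in each library, at 0.57, 0.95 and 0.011 against 0.65, 1.14 and 0.24. The 2 members with TCAAGGTCA, Atp5g3 and Sdhd, had the higher median in each library, at 1.14, 1.63 and 0.71 against 0.61, 1.13 and 0.19. With 5 and 2 members these last medians are descriptions of those few genes.

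The genomic length of a member moved with its ratio. Of the 89 members with a position and enough UMIs in the untreated library, the 58 that span under 10 kb had a median log2 ratio of BA-like over EC-like nuclei of 0.51, and the 31 longer ones of 1.31. At least 2-fold higher in BA-like nuclei were 11 of the 58 and 22 of the 31, beside 26.4% of all short and 27.6% of all long genes. Spearman's rho over these 89 genes was 0.56, against 0.011 over 11622 genes tested. The same split gave medians of 0.11 and 0.95 in the denervated library, with a rho of 0.55 over 86 genes, and 1.11 and 1.498 in the sham library, with a rho of 0.25 over 90 genes. Longer members were thus higher in each library, least clearly in sham. These are correlations across genes of the same 2 sums of nuclei, which share libraries and depth, and are given as description only. Ndufs1, Sdha and Sdhb, with spans of 33.2, 28.0 and 18.0 kb, lay among the long genes, while Cox7a1 and Cox8b, with 1.94 and 1.502 kb, lay among the short ones. Ndufaf4, at 6.92 kb, had a high ratio at a short span. Long genes carry more intronic sequence, and whether intronic reads were counted was not given in the sources used here.

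**Figure D3:**
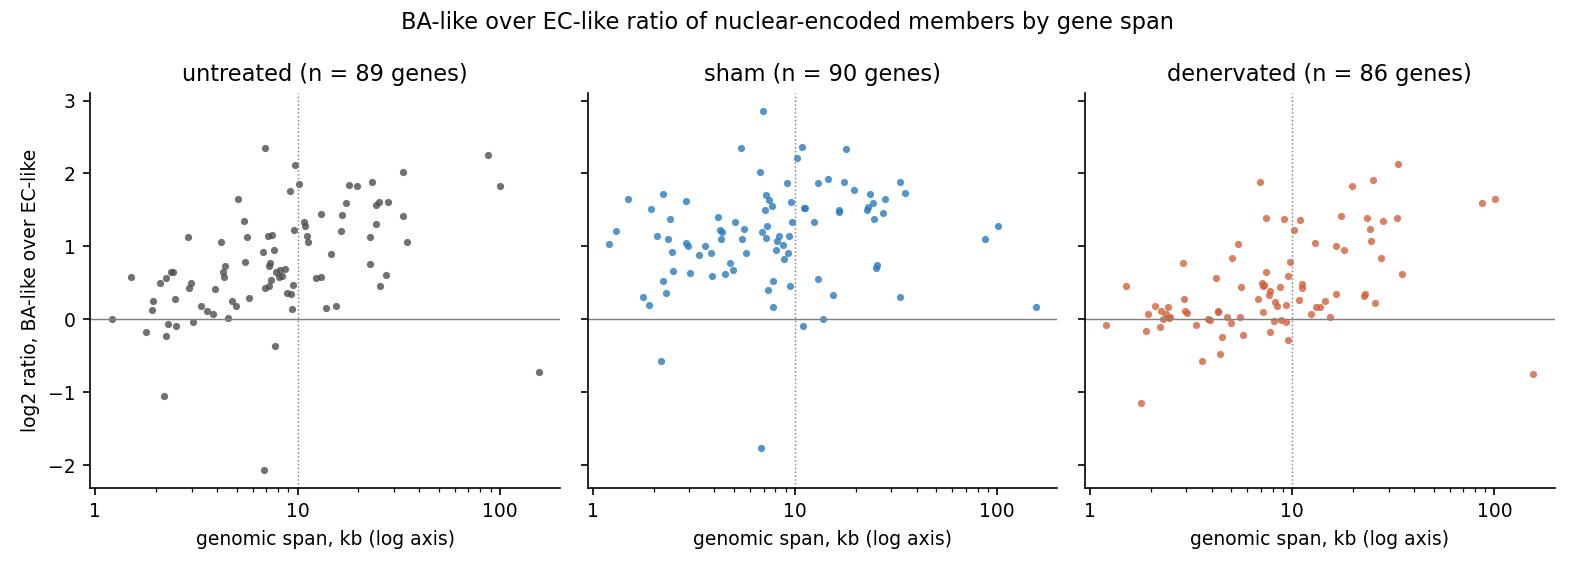
Log2 ratio of BA-like over EC-like nuclei for each nuclear-encoded member (vertical axis) by its genomic span in kb (log axis), in the 3 libraries; the dotted line marks 10 kb. In the untreated and denervated panels the cloud rises with span, with medians of 0.51 and 0.11 below 10 kb and 1.31 and 0.95 above.

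White adipocyte-like nuclei carried less of the nuclear-encoded group than BA-like nuclei, by log2 ratios of -1.09 (-1.18 to -1.001), -1.15 (-1.18 to -1.11) and -0.60 (-0.63 to -0.58) in untreated, sham and denervated nuclei. At least 2-fold lower were 51 of 88 members in untreated nuclei, beside 34.5% of all genes, 60 of 88 in sham nuclei, beside 21.3%, and 29 of 87 in denervated nuclei, beside 23.8%. Complex II was again the most different complex, at -1.97, -1.73 and -1.30, and complex IV the least, at -0.70, -0.98 and -0.26. Ndufv1, the flavoprotein of complex I that binds NADH, stood at 42.4, 40.8 and 30.5 CPM in white adipocyte-like nuclei against 125, 167 and 109 in BA-like nuclei. The mt- genes did not follow, with ratios of the sums of -0.13, -0.017 and 0.022. White adipocyte-like nuclei also held BA markers, at 10914, 16995 and 7981 CPM in the 3 libraries, above the sum of BA-like nuclei in sham and below it in the others. Their white adipocyte markers, of which 5 of 7 were in the tables, summed to 2817, 2117 and 1876 CPM against 325, 205 and 524 in BA-like nuclei. Ucp1 stood at 70.6, 39.9 and 88.0 against 344, 405 and 309. Ucp1, which was in none of the lists used for naming, was thus lower than in BA-like nuclei in each library. The white adipocyte markers also named these clusters, so their higher sum follows from the naming. The genes of the BA list, Adipoq and Plin1 among them, summed high in both types and did not tell the types apart.

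All 13 mt- genes were lower in BA-like than in EC-like nuclei in each library. The sums differed by log2 ratios of -1.55 (untreated), -0.97 (sham) and -1.58 (denervated). Single genes ran from -2.13 (mt-Nd6) to -1.29 (mt-Nd3) in untreated nuclei, from -1.52 (mt-Nd4l) to -0.60 (mt-Nd3) in sham nuclei and from -2.48 (mt-Nd4l) to -1.14 (mt-Nd3) in denervated nuclei. mt-Nd3, a core subunit of complex I, thus had the smallest difference each time. By complex the untreated ratios lay close together, at -1.60 for complex I, -1.59 for complex III, -1.51 for complex IV and -1.55 for complex V. Where only nuclei with at most 10% mt- UMIs were kept, a limit set on these same UMIs, the ratio became -1.23 in untreated and -1.14 in denervated nuclei and changed sign to 0.092 in sham nuclei. Against the largest EC-like cluster not led by Aqp1 it was -0.39, -0.47 and -0.32.

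The make-up of the mt- UMIs differed between libraries, sham most of all. mt-Co1, the catalytic subunit of complex IV, took 15.4% (15.3 to 15.6) of mt- UMIs in untreated BA-like nuclei, 4.54% (4.47 to 4.61) in sham and 21.5% (21.2 to 21.7) in denervated. Over the BA-like, EC-like, pericyte-like and white adipocyte-like nuclei its share ran from 13.4% to 20.4% in the untreated library, from 4.54% to 5.27% in sham and from 17.6% to 23.9% in denervated. The libraries' ranges did overlap between untreated and denervated, and sham lay apart from both. The sham table has no header that names its pipeline version or annotation, and the part of processing in the sham values was not tested. mt-Nd3 took 5.30%, 10.53% and 5.04% in BA-like nuclei, highest in sham. mt-Atp6, the proton channel subunit of the ATP synthase, took 12.1%, 17.5% and 9.73%, and mt-Cytb, the cytochrome b of complex III, 12.4%, 14.1% and 7.93%. Both were highest in sham and lowest in denervated nuclei.

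A distance between a pair of make-ups, the percentage points of share that differ, summed this up. Between nucleus types of 1 library the mt- distances had a median of 5.75 points over 18 pairs (1.83 to 14.3). Between libraries of 1 type the median was 18.6 points over 12 pairs (10.9 to 24.98). For nuclear-encoded members the corresponding medians were 16.2 (7.04 to 22.01) and 13.2 (9.84 to 26.97). By their medians the mt- make-ups differed more between libraries than between types, but the ranges overlapped, since EC-like and white adipocyte-like nuclei of the denervated library lay 14.3 points apart. The nuclear-encoded distances cover 94 genes and rest on sums from 1069 UMIs up, where counting error adds to the distance, so they are not compared with those of mt- genes. In barcodes with under 200 detected genes mt-Co1 took 8.82%, 3.997% and 15.3% of mt- UMIs, with sham again lowest and denervated highest. The pairs share libraries and types, so these medians are descriptions.

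**Figure D4:**
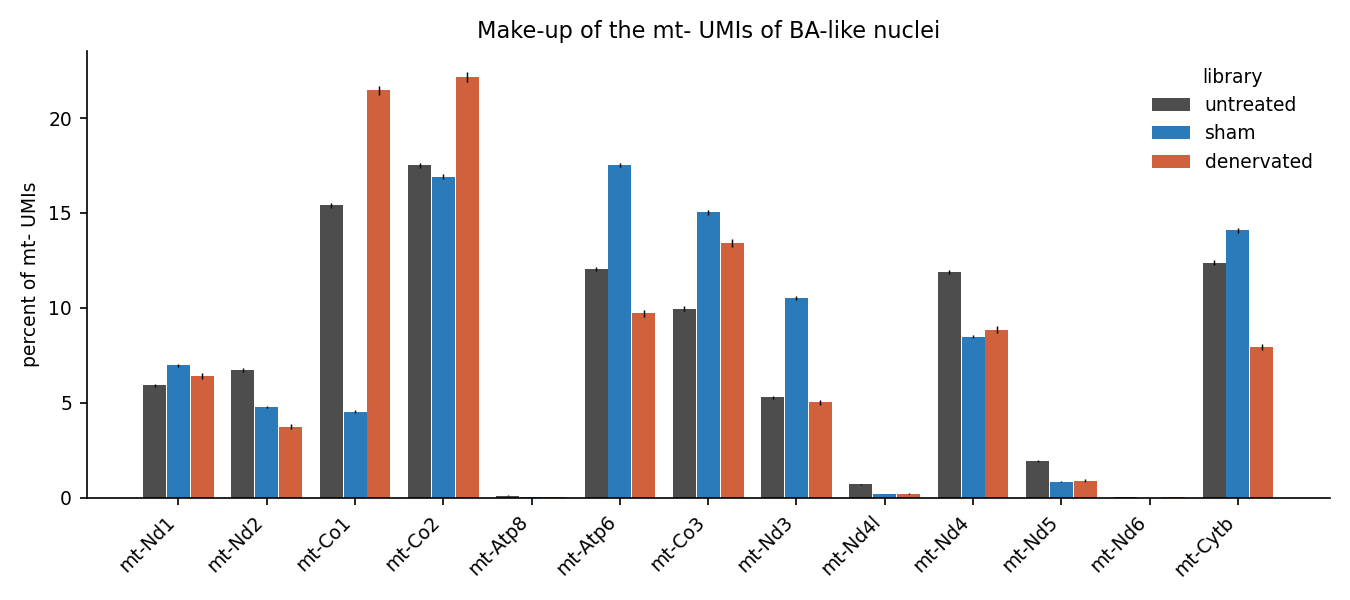
Share of each mt- gene among the mt- UMIs of BA-like nuclei (percent, vertical axis) in the 3 libraries, with genes in their order along the mitochondrial DNA and exact 95% binomial intervals as bars. mt-Co1 falls from 15.4% in untreated to 4.54% in sham nuclei and stands at 21.5% in denervated nuclei, while mt-Nd3 and mt-Atp6 are highest in sham.

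After denervation the nuclear-encoded group stood higher in BA-like nuclei than in untreated ones, by 0.28 on the log2 scale (0.27 to 0.30). The median member was at 0.22, where the median of all genes tested was 0.0093. Only 3 of 91 members were at least 2-fold higher, beside 4.58% of all genes, and 0 were at least 2-fold lower, beside 1.08% of all genes. The 3 were Ndufa2 at 1.20 (178 CPM in untreated, 158 in sham and 410 in denervated nuclei), Cox6b2 at 1.10 and the small ATP synthase subunit Atp5k at 1.02 (174, 382 and 353). The denervated value of Ndufa2 stood apart from the other libraries, whereas Atp5k was as high in sham. Just under the limit was Cox6a1 at 0.99 (478, 465 and 947), and then Ndufs6 at 0.86. The lowest members were Atp5j at -0.90, Ndufaf4 at -0.81, Ndufa4l2 at -0.72 with an interval of -1.62 to 0.12, Ndufaf1 at -0.51 and Sdhaf2 at -0.47.

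By complex, complex IV stood highest in denervated over untreated BA-like nuclei, at 0.60 (0.57 to 0.62), with 3372, 3689 and 5096 CPM in untreated, sham and denervated nuclei. Complexes I, III and V were at 0.25, 0.25 and 0.24. Complex II was lower, at -0.12 (-0.16 to -0.079), and so were the assembly factors, at -0.35 (-0.43 to -0.28). Against sham in place of untreated nuclei complex II turned to the other direction, at 0.16 (0.11 to 0.21), while complex IV was at 0.47 and the assembly factors at -0.11. The direction of complex II after denervation thus depended on the reference library. Complex IV was also higher in the denervated than the untreated library in the other types. It stood at 4730 against 2465 CPM in EC-like, 3638 against 2193 in pericyte-like and 4247 against 2069 in white adipocyte-like nuclei. In barcodes with under 200 detected genes it stood at 3797 against 2580. Its difference was thus not particular to BA-like nuclei. EC-like nuclei of the denervated library were also above the untreated ones, by 0.74 for the group, and of 89 members with UMIs compared over the 3 libraries 76 were highest in denervated EC-like nuclei, beside 42.2% of all genes. In BA-like nuclei it was 46 of 92, beside 35.1% of all genes. Length moved with this difference too, with medians of 0.32 in 59 members under 10 kb and 0.072 in 31 longer ones, and a Spearman's rho of -0.43 over 90 members against 0.31 over 12007 genes. The level in barcodes with under 200 detected genes was higher in the denervated library as well, at 12391 against 8456, and its part in the result was not tested.

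The sham library left the nuclear-encoded sum of BA-like nuclei where it was in untreated nuclei, at a log2 ratio of 0.0040 (-0.0084 to 0.016), while single members moved. At least 2-fold higher were 2 of 91, Cox6b2 at 1.22 and Atp5k at 1.14, beside 7.94% of all genes. At least 2-fold lower was 1, Uqcrfs1 at -1.03 (234 CPM in untreated, 115 in sham and 206 in denervated nuclei), beside 8.46% of all genes. Both counts were below the shares over all genes. The next highest were Cox8b at 0.86, Ndufa1 at 0.80 and Ndufa3 at 0.79, and the next lowest the assembly factors Ndufaf5 at -0.72, Ndufaf7 at -0.70 and Sdhaf3 at -0.69 and the subunit Ndufs4 at -0.62. By complex the ratios stayed between -0.29 (complex II) and 0.13 (complex IV).

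The mt- genes differed far more between the libraries than the nuclear-encoded members did. In denervated over untreated BA-like nuclei the sum was at -0.76 (-0.77 to -0.75) and all 13 genes were lower. Of these, 7 were at least 2-fold lower, beside 1.08% of all genes. The differences were uneven, from -2.43 for mt-Nd4l, -2.41 for mt-Atp8 and -1.84 for mt-Nd5 to -0.42 for mt-Co2, -0.33 for mt-Co3 and -0.29 for mt-Co1, so that the 3 complex IV genes were the least changed. In sham over untreated nuclei the sum was at 1.04 (1.03 to 1.05). There mt-Nd3 was at 2.03, mt-Co3 at 1.63 and mt-Atp6 at 1.58, but mt-Nd4l was at -0.81, mt-Nd6 at -0.73 and mt-Co1 at -0.72. For mt-Co1 both operated libraries were therefore below the untreated one, with 4865, 2946 and 3986 CPM in untreated, sham and denervated nuclei, while mt-Nd3 had 1673, 6831 and 936. Both comparisons share the untreated library. Some mt- genes overlap on the mitochondrial DNA, mt-Atp8 with mt-Atp6 and mt-Nd4l with mt-Nd4 among them, and reads there cannot always be told apart. The mt- levels of barcodes with under 200 detected genes differed between libraries in the same order as those of the nuclei, and their part in the result was not tested.

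**Figure D5:**
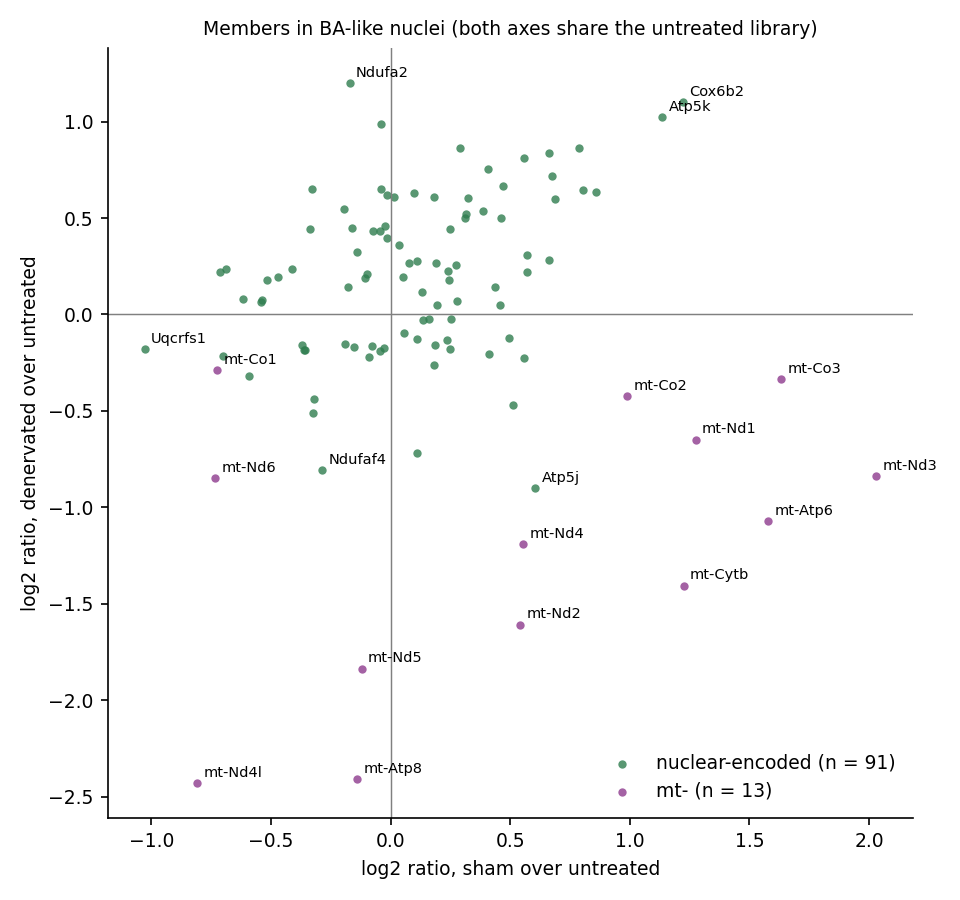
Log2 ratio in BA-like nuclei of sham over untreated (horizontal axis) and denervated over untreated (vertical axis) for 91 nuclear-encoded members and 13 mt- genes; both axes share the untreated library, so no relation between them is read. The mt- genes all lie below 0 on the vertical axis and spread from -0.81 to 2.03 on the horizontal one, and most nuclear-encoded members lie within 1 of 0 on both.

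Genes that act around the respiratory chain were taken from lists of 7 kinds. In untreated nuclei, at least 2-fold higher in BA-like than EC-like nuclei were 16 of 17 citric acid cycle and pyruvate dehydrogenase genes, 11 of 13 genes of coenzyme Q synthesis, 9 of 12 genes that copy and transcribe mitochondrial DNA, 16 of 27 assembly factors outside the symbol rule, 8 of 12 transcriptional regulators and 5 of 9 carriers, where 27.5% of all genes met the same rule. Of 3 uncoupling genes tested, Ucp1 and Ucp3 were higher and Ucp2 was lower. Their medians were 1.996, 1.91, 1.39, 1.24, 2.54 and 1.13 for the first 6 lists, each above the 0.65 of the nuclear-encoded members and the 0.28 of all genes tested. Ppargc1a, the coactivator that drives mitochondrial biogenesis, stood at 283, 186 and 294 CPM in BA-like nuclei against 13.6, 8.01 and 15.8 in EC-like nuclei. Gpd2, the glycerol phosphate dehydrogenase that feeds electrons to ubiquinone, stood at 947, 322 and 761 against 147, 79.1 and 181. Cycs, cytochrome c, stood at 85.9, 80.8 and 82.3 against 50.5, 29.5 and 77.9. It was closer between types in the untreated and denervated libraries, but at least 2-fold higher in BA-like nuclei in sham. Ucp1 itself stood at 344, 405 and 309 in BA-like nuclei and 90.0, 71.8 and 126 in EC-like nuclei. In barcodes with under 200 detected genes it was at 103, 90.5 and 122, near the EC-like values, and the part of these barcodes was not tested.

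Between libraries few of these genes differed by 2-fold in BA-like nuclei, as did few of all genes. The shares of all genes that were higher and lower were 4.58% and 1.08% in denervated over untreated nuclei and 7.94% and 8.46% in sham over untreated nuclei. In denervated over untreated nuclei only Ucp3, a homolog of Ucp1, was lower (-1.17, with 181, 165 and 80.5 CPM in untreated, sham and denervated nuclei) and only the mitochondrial topoisomerase Top1mt was higher (1.003, with 11.3, 13.3 and 22.6). In sham over untreated nuclei Pdk4, a kinase that switches off pyruvate dehydrogenase, was at 1.73 and Slirp, which stabilizes mitochondrial mRNAs, at 1.67. Lower there were Ucp2 at -1.75, Gpd2 at -1.56, the pyruvate dehydrogenase subunit Pdhb at -1.37, the copper chaperone Sco2 at -1.27, Esrrb at -1.11 and the mitochondrial helicase Twnk at -1.09. Pdk4 also led the sham BA-like cluster rich in heat-shock and immediate early genes. None of the coenzyme Q genes, and none of the carriers other than Gpd2, reached 2-fold in either comparison.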

How the data were processed

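Nuclei of BAT from 3 libraries, 1 per condition, were sequenced by the authors and processed with the BD Rhapsody pipeline. The deposited tables hold UMI counts, whole numbers of molecules per barcode and gene after the pipeline's error correction, with no normalization. Per the file headers of the untreated and denervated tables, the pipeline was version 1.9 for nuclei with GRCm38 and GENCODE vM19. The sham table has no header, and the labels name GRCh38, a human build, which was not used. The authors removed empty droplets with DIEM and free RNA with decontX after these tables, and neither step was repeated, so free RNA remains in the values. How reads shared with pseudogenes or overlapping genes were counted was not given in the sources used here.

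A barcode was kept when it had 200 or more detected genes and mt- UMIs made up 50% or less of it. In the untreated library 11792 of 13707 barcodes passed, in the sham library 14027 of 15368 and in the denervated library 10462 of 15822. Nuclei that held 3 or more UMIs from both of a pair of mutually exclusive marker lists, with the smaller sum at 25% or more of the larger, were taken out as doublets (1698, 2650 and 1092). Each library was normalized, reduced to 2000 variable genes and 30 principal components and clustered (20 neighbours, Louvain resolution 0.5), with the 107 respiratory chain genes left out. This was done with NumPy 2.4.6, scikit-learn 1.9.0 and igraph 0.11.9 in Python 3.11.15. Clusters were named from marker lists, with at least 3 markers required. Unnamed clusters of at least 100 nuclei were re-clustered once, a step chosen after the data were seen.

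UMI counts were summed over the nuclei of a type and divided by its total UMIs. Sums have exact Poisson intervals, ratios exact conditional binomial intervals and shares Clopper-Pearson intervals, all at 95%, from SciPy 1.17.1. Ratios were counted as called at 2-fold (1 on the log2 scale), with at least 50 UMIs over both sums. Nuclei are not replicates and no p-value was computed. The functions were tested on simulated data. Gene spans and exon lengths were taken from GENCODE vM21 on GRCm38 by symbol, and promoters from RefSeq on GRCm38.p6, where 76 nuclear-encoded members were matched. Protein sequences were not used here.

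Genes were named by rule: the sums and complexes, the isoform sets, the mt- genes, the 5 highest members per exonic length in untreated BA-like nuclei, the 5 highest and 5 lowest ratios of 4 comparisons, and the listed pathway genes that reached 2-fold. Core subunits such as Sdha, Sdhb, Sdhd, Atp5a1, Uqcrc1, Uqcrc2, Ndufv1, Atp5b and Ndufs8, and members whose direction differed between the types, were named after their values were seen. The 107 members and the lists were chosen with earlier results of these data known. Alternatives were the minimum of detected genes, the limit on mt- UMIs, doublets, resolution, typing of single nuclei, the denominator, the weight of nuclei, depth, the reference library and the clusters that make up a type.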

Additional observations from a re-analysis of the deposited data

Results flagged for a closer look

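Members and complexes were compared for opposite directions of an operated over the untreated library in BA-like and EC-like nuclei, with intervals that both left out 0. Genes with more UMIs have narrower intervals and meet this rule more easily. The shares of all genes given beside the members were not matched for UMIs, and the part of UMI number in them was not tested. In denervated over untreated nuclei 7 of 95 members went in opposite directions, 7.37% beside 2.92% of all genes. All were lower in BA-like and higher in EC-like nuclei, namely Sdhb (-0.19 and 0.71), the Rieske protein Uqcrfs1 (-0.18 and 0.63), the complex I subunits Ndufs5 (-0.18 and 0.59), Ndufs3 (-0.16 and 0.47) and Ndufa10 (-0.18 and 0.25), the complex IV subunit Cox7b (-0.12 and 0.51) and the catalytic ATP synthase subunit Atp5b (-0.22 and 0.42). Complex II as a sum was at -0.12 in BA-like and 0.41 in EC-like nuclei. Against sham in place of untreated nuclei complex II was higher in both types, at 0.16 and 0.96, so its split rests on the untreated library. Cox7b split again, at -0.62 and 1.12. By their CPM, Sdhb, Ndufs3, Ndufs5 and Atp5b were also lower than sham in BA-like and higher in EC-like nuclei. Uqcrfs1 and Ndufa10 were higher than sham in both types. Intervals against sham are not given here for these genes.

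In sham over untreated nuclei 15 of 102 members went in opposite directions, 14.7% beside 6.61% of all genes. All but Ndufaf7 (-0.70 and 0.67) were higher in BA-like and lower in EC-like nuclei. Those of complex IV were Cox7a1 (0.69 and -0.57), Cox5b (0.57 and -0.58), Cox7b (0.49 and -0.61) and Cox7a2 (0.32 and -0.28). Those of complex I and its assembly were Ndufv1 (0.41 and -0.59), Ndufaf2 (0.28 and -0.61), Ndufa9 (0.27 and -0.58), Ndufb5 (0.25 and -0.78), Ndufb9 (0.18 and -0.44), Ndufv2 (0.13 and -0.28) and mt-Nd2 (0.54 and -0.14). Those of complex V were Atp5d (0.24 and -0.72), Atp5h (0.19 and -0.38) and Atp5g3 (0.19 and -0.30). As sums, complex I was at 0.047 in BA-like and -0.35 in EC-like nuclei, and complex IV at 0.13 and -0.63. With 1 library per condition, these differences between the types were not tested.

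Barcodes outside the kept nuclei also carried a signal. In the sham library, mt- genes took 59.0% of the UMIs of barcodes with under 200 detected genes, and 353 barcodes had over 50% mt- UMIs, where the untreated library had 44 and the denervated library 2. The part of these barcodes in the mt- levels of the kept nuclei was not tested.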

How the results depend on the processing

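Log2 ratios in BA-like nuclei, against EC-like nuclei of the same library or against untreated BA-like nuclei, were recomputed one choice at a time. The nuclear-encoded group stayed higher in BA-like than EC-like nuclei, and higher in denervated than untreated BA-like nuclei, under each alternative run. The depth bin of 500 to 1000 UMIs given above was not among these, and there the BA-like excess was absent in the denervated library. The sham over untreated ratio of the nuclear-encoded group, near 0 in the report, took either sign. The mt- group kept its direction under each alternative with 1 exception, the sham BA-like over EC-like ratio with at most 10% mt- UMIs, which was 0.092. The 10% limit removes nuclei by their mt- UMIs. The causes of the shifts were not tested. Values that moved beyond their counting interval were as follows.

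With at least 500 detected genes per nucleus, the nuclear-encoded ratio over EC-like nuclei was 0.71 (untreated) and 0.24 (denervated), and that over untreated nuclei 0.31 (denervated). The mt- ratio over EC-like nuclei was -1.67 (untreated) and -1.09 (sham), and that over untreated nuclei 1.06 (sham) and -0.74 (denervated). With at most 10% mt- UMIs, a limit on the UMIs of the second group itself, the nuclear-encoded ratio over EC-like nuclei was 0.90 (untreated), 1.68 (sham) and 0.54 (denervated), and that over untreated nuclei 0.026 (sham). For mt- genes the ratio over EC-like nuclei was -1.23 (untreated), 0.092 (sham) and -1.14 (denervated), and that over untreated nuclei 0.98 (sham) and -0.74 (denervated). With doublets kept, the nuclear-encoded ratio over EC-like nuclei was 0.74 (untreated), 1.14 (sham) and 0.25 (denervated), and that over untreated nuclei -0.036 (sham) and 0.30 (denervated). That of mt- genes over EC-like nuclei was -1.63 (untreated), -0.96 (sham) and -1.43 (denervated), and that over untreated nuclei 1.12 (sham) and -0.82 (denervated). At Louvain resolution 1, the nuclear-encoded ratio over EC-like nuclei was 0.71 (untreated). The mt- ratio over EC-like nuclei was -1.68 (untreated). With UMIs outside mt- genes as the denominator, the nuclear-encoded ratio over EC-like nuclei was 0.72 (untreated), 1.16 (sham) and 0.30 (denervated), and that over untreated nuclei 0.055 (sham) and 0.27 (denervated). For mt- genes the ratio over EC-like nuclei was -1.65 (untreated), -1.07 (sham) and -1.64 (denervated), and that over untreated nuclei 1.09 (sham) and -0.78 (denervated). As a mean over nuclei of equal weight, the nuclear-encoded ratio over EC-like nuclei was 0.89 (untreated), 1.33 (sham) and 0.40 (denervated), and that over untreated nuclei 0.067 (sham) and 0.26 (denervated). That of mt- genes over EC-like nuclei was -1.30 (untreated), -0.76 (sham) and -1.45 (denervated), and that over untreated nuclei 0.96 (sham) and -0.84 (denervated). In nuclei of 500 to 2000 UMIs, the nuclear-encoded ratio over EC-like nuclei was 0.64 (untreated) and 0.14 (denervated), and that over untreated nuclei 0.12 (sham) and 0.37 (denervated). The mt- ratio over EC-like nuclei was -1.62 (untreated), -1.11 (sham) and -1.90 (denervated), and that over untreated nuclei 0.97 (sham) and -0.83 (denervated). With only the Aqp1-led cluster as EC-like, the nuclear-encoded ratio over EC-like nuclei was 0.68 (untreated), 0.81 (sham) and 0.073 (denervated). For mt- genes the ratio over EC-like nuclei was -1.68 (untreated), -1.56 (sham) and -1.94 (denervated). With only the largest other EC-like cluster, the nuclear-encoded ratio over EC-like nuclei was 1.70 (untreated), 1.64 (sham) and 1.25 (denervated). That of mt- genes over EC-like nuclei was -0.39 (untreated), -0.47 (sham) and -0.32 (denervated). Without the BA-like clusters led by heat-shock genes, the nuclear-encoded ratio over EC-like nuclei was 0.85 (untreated), 1.29 (sham) and 0.42 (denervated), and that over untreated nuclei 0.31 (denervated). The mt- ratio over EC-like nuclei was -1.62 (denervated), and that over untreated nuclei 1.05 (sham) and -0.79 (denervated). With each nucleus typed alone from its marker UMIs, the nuclear-encoded ratio over EC-like nuclei was 1.18 (sham), and that over untreated nuclei -0.12 (sham) and 0.26 (denervated). For mt- genes the ratio over EC-like nuclei was -1.53 (untreated), -0.92 (sham) and -1.45 (denervated), and that over untreated nuclei -0.75 (denervated). Without the BA-like clusters led by Gm26917, the mt- ratio over EC-like nuclei was -1.60 (untreated) and -0.99 (sham), and that over untreated nuclei 1.07 (sham) and -0.72 (denervated).

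Against sham in place of untreated nuclei, the denervated mt- ratio was -1.80, and complex II in BA-like nuclei turned from -0.12 to 0.16. The count of members at least 2-fold lower in denervated BA-like nuclei was 1 in place of 0 with at least 500 detected genes, with each nucleus typed alone and with sham as the reference. With sham as the reference 8.36% of all genes met the same rule, in place of 1.08%. For the other settings no share of all genes is given. The count at least 2-fold higher in untreated BA-like over EC-like nuclei was 78 in place of 33 with the largest other EC-like cluster, beside 30.6% in place of 27.5% of all genes. The choices of EC-like cluster and the removal of heat-shock and Gm26917-led clusters were added after the data were seen. No paired analysis was possible because each condition was 1 library and the labels give no replicate numbers, and for the same reason no replicate could be left out. Depth limits the scarce members, such as Cox6b2 and Atp5g1, and the EC-like sums of the denervated library, which rest on 885483 UMIs.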
